A study of Mus musculus with 18 samples.

Results

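Reelin signalling was followed through 9 genes, taken by their symbols from the deposited tables of the 23038 gene symbols measured in cortex. They are the ligand *Reln*, its receptors *Lrp8* and *Vldlr*, the adaptor *Dab1*, the kinases *Fyn* and *Src*, and *Crk*, *Crkl* and *Rapgef1*, which act downstream of *Dab1*. The table of splicing events holds 15 rows for them of 1991 in all, 4 for *Dab1* and 11 for *Lrp8*, and the other 7 genes have no row. Total RNA depleted of ribosomal RNA was sequenced from the cortex of 12 mice of the CD1 background at embryonic day 18.5, 3 in each of 4 groups: *Nova2-/-* mice, their wild-type littermates, *Nova1-/-* mice and the wild-type littermates of these. The first 2 groups are called the *Nova2* litters and the last 2 the *Nova1* litters. Splicing was also measured at embryonic day 18.5 in midbrain and hindbrain of 3 *Nova1-/-* mice and 3 wild-type littermates. Their labels carry the same mouse numbers as the cortex samples of the same genotypes, so the 2 tissues cannot be taken as coming from separate mice. NOVA1 and NOVA2 are neuronal RNA-binding proteins that steer alternative splicing through clusters of YCAY, which in DNA letters stands for TCAT or for TCAC, and likewise for CCAT or for CCAC. Both alleles are germline nulls, and the *Nova2* null carries an IRES-Cre cassette at its first known coding exon, ahead of the initiator ATG. The labels do not say which mice of a group shared a litter.

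Reelin is a large secreted glycoprotein that Cajal-Retzius cells at the surface of the developing cortex release. It binds the lipoprotein receptors encoded by *Lrp8* (ApoER2) and *Vldlr*, whose tails hold the adaptor DAB1, and the kinases FYN and SRC then phosphorylate DAB1 on tyrosines. Phosphorylated DAB1 recruits CRK and CRKL, which bring RAPGEF1 to activate the small GTPase RAP1, and the pathway is known for placing migrating neurons in their cortical layers.

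The splicing events of *Dab1* lie on a single span of mm9, chr4:104360988-104390877 on the plus strand, 29890 nt from the exon before to the exon after the alternative exons. Within it the annotation (GENCODE vM1) places a pair of coding exons that are included or skipped together or apart, 91 nt from each other. Of the annotated protein-coding transcripts, Dab1-202 carries both, 2 others carry the first alone, and Dab1-001 joins the exons on either side and skips both. The exons and their surroundings are shown because YCAY is dense there. All are given 5′ to 3′ on the plus strand, read from the mm9 genome, with each YCAY in capitals.
*Dab1* first alternative exon, chr4:104386227-104386277, 51 nt: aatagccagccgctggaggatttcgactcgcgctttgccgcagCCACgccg
*Dab1* second alternative exon, chr4:104386369-104386422, 54 nt: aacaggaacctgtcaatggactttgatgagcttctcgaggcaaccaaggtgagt
*Dab1* intron between them, chr4:104386278-104386368, 91 nt: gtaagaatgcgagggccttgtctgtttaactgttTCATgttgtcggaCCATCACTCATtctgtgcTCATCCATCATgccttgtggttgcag
*Dab1* upstream intron, chr4:104386027-104386226, 200 nt: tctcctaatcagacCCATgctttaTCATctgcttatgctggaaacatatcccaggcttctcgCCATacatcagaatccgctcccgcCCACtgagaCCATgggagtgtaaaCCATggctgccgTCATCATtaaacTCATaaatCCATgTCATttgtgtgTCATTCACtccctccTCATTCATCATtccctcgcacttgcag
*Dab1* downstream intron, chr4:104386423-104386622, 200 nt: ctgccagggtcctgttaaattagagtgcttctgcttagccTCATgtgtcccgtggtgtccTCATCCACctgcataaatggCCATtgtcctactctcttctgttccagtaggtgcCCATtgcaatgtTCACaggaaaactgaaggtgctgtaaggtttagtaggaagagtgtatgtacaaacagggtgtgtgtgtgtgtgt

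The annotated second exon of *Dab1* ends with the letters GTGAGT and is followed by CT in the genome. With its end moved before those 6 bases it holds 48 nt, and both exons together hold 99 nt, a multiple of 3 that adds 33 codons. The annotated lengths together, 105 nt, are also a multiple of 3, so the reading frame does not tell these ends apart. Dab1-202 carries the exons as annotated, at 51 and 54 nt. There the pair follows the first 239 codons of the protein, near the tyrosines that FYN and SRC phosphorylate. The exon before them has 2 annotated ends, at 54 and 60 nt, and GT follows each. The longer form ends with the letters GTAAGT.

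The upstream intron held 16 YCAY in its 200 nt, the intron between the exons 7 in 91 nt, the first exon 1, the second exon 0 and the downstream intron 6 in 200 nt. Overlapping motifs were each counted on the transcribed strand. Of 152838 windows of 200 nt directly upstream of annotated internal exons, 95.6% held a YCAY, the median was 3 and 0.0275% held 16 or more. Over both exons, the intron between and 200 nt on either side, *Dab1* had 30 YCAY in 596 nt, or 5.03 per 100 nt. The same regions of the cassette and tandem cassette events whose exons the annotation places had a median of 1.88 per 100 nt, with quartiles of 1.44 and 2.48, but these are 345 of 936 spans (36.9%), so the comparison with all events is void. By the study's methods events were also kept for YCAY within NOVA crosslinking clusters, so the presence of the motif was part of how the table was made.

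**Figure D1:**
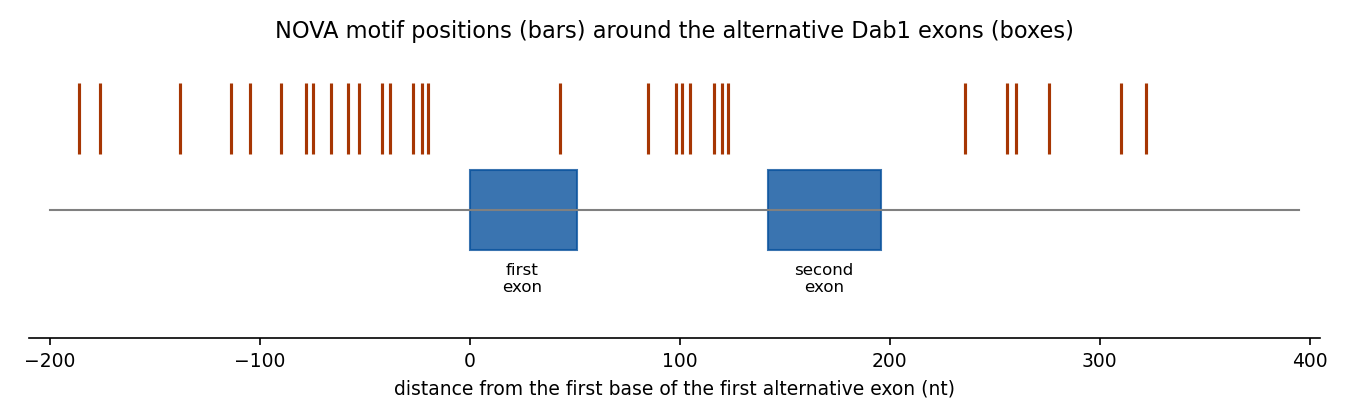
Position of each YCAY (vertical bars) around the alternative *Dab1* exons (boxes, as annotated), in nt from the first base of the first alternative exon on the transcribed strand. The 16 bars of the upstream intron and the 7 between the exons stand closer together than the 6 downstream.

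All 15 events had a Δ*I* below 0 in *Nova2-/-* cortex. Here Δ*I* is the inclusion fraction in wild-type minus that in the knockout. A value below 0 thus stands for higher inclusion, in the knockout, of the form counted as included. By the study's account these are events with an absolute Δ*I* of at least 0.1 and an FDR below 0.1 in the authors' test of this comparison. The values therefore describe events already selected on them and are not tested again here. Of all 1991 events 51.4% had a Δ*I* below 0. Each Δ*I* is a single deposited value per comparison, with no reads and no spread beside it in the table, so differences between events cannot be set against an error here.

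*Dab1* had the lowest Δ*I* of the table, -0.985 for a tandem cassette event, in which a pair of exons is included or skipped together. No exon positions could be read from the names of the *Dab1* events. Which of them, if any, is that of the annotated pair shown above is therefore not known. The other tandem cassette event on the span had a Δ*I* of -0.559. For the cassette event, with a single exon, it was -0.425, and for the alternative 5′ splice site it was -0.113, where the table does not say which form counts as included. An absolute Δ*I* of at least 0.5 was listed for 43 of 720 tandem cassette events (5.97%), *Dab1* with both of its own among them. The 4 events share a span and junctions and are therefore not independent.

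In *Nova1-/-* cortex the same events stayed near 0. Δ*I* of *Dab1* there was 0.0526 for the tandem cassette event with the lowest value in *Nova2-/-* cortex. It was 0.000168 for the second tandem cassette event, -0.0082 for the cassette and 0.047 for the 5′ splice site. In midbrain and hindbrain of *Nova1-/-* mice Δ*I* of *Dab1* was listed at 0 for 3 of the 4 events and was 0.038 for the 5′ splice site. No *Dab1* event reached 0.1 in size in either *Nova1-/-* tissue. With no reads given, the 3 values of 0 cannot tell equal inclusion from too few reads, so they do not show unchanged splicing. The events of both knockouts were measured against different wild-type mice.

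*Lrp8* had 11 events on 2 spans, 8 on chr4:107520049-107524032, in the extracellular part, and 3 on chr4:107541583-107544978, in the part for the cytoplasmic tail. Their Δ*I* in *Nova2-/-* cortex lay between -0.26 and -0.14, with a median of -0.215. Against a median size of 0.223 over all events they were of ordinary size for this table. The tandem cassette and cassette events of *Dab1* were larger, and its 5′ splice site event, at -0.113, was smaller. The names of 3 *Lrp8* events give the place of the exon, and these exons are shown with YCAY in capitals. All 3 lengths are multiples of 3.
*Lrp8* exon chr4:107520886-107521008, 123 nt: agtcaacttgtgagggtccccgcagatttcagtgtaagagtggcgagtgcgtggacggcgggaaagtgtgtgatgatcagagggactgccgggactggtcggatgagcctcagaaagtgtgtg
*Lrp8* exon chr4:107522709-107522747, 39 nt: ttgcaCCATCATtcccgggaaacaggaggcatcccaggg
*Lrp8* exon chr4:107542617-107542793, 177 nt: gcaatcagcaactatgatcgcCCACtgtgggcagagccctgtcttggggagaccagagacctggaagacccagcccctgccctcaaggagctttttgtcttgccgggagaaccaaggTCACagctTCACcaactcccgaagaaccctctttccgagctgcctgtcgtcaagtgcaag

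The 123 nt exon of *Lrp8*, which codes for a ligand-binding repeat of the low density lipoprotein receptor type, had a Δ*I* of -0.164 in *Nova2-/-* cortex, 0.071 in *Nova1-/-* cortex and 0.0136 in *Nova1-/-* midbrain and hindbrain. The 39 nt exon is in none of the annotated transcripts. Its Δ*I* was -0.171 in *Nova2-/-* cortex, 0.168 in *Nova1-/-* cortex and 0.112 in *Nova1-/-* midbrain and hindbrain, so its sign was opposite in the 2 knockouts. The 177 nt exon, which codes for the proline-rich insert of the cytoplasmic tail, had a Δ*I* of -0.169, -0.00498 and 0.0339 in the same order. It is coding in Lrp8-002 and Lrp8-006.

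With 200 nt on either side, the 123, 39 and 177 nt exons of *Lrp8* held 10, 8 and 7 YCAY, or 1.91, 1.82 and 1.21 per 100 nt. The 200 nt upstream of them held 4, 3 and 3 YCAY, numbers that 42.9%, 63.8% and 63.8% of the windows upstream of annotated exons reached. The *Lrp8* exons thus stood within the middle of that distribution, and *Dab1* at its upper end.

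The event of the 39 nt exon was the only one of the 15 with an absolute Δ*I* of at least 0.1 in *Nova1-/-* cortex, against 11.1% of all 1984 events with a value there. It was also the only one in *Nova1-/-* midbrain and hindbrain, against 15.9% of all 1991 events. In *Nova1-/-* cortex Δ*I* was above 0 for 10 of 11 *Lrp8* events and 3 of 4 *Dab1* events, against 49.6% of all events. In midbrain and hindbrain it was above 0 for 8 of 11 *Lrp8* events, against 47.0% of all events. There it was above 0 for 1 of 4 *Dab1* events and listed at 0 for the other 3. The 8 events of the first *Lrp8* span had values of 0.0593 to 0.168 in *Nova1-/-* cortex, where lower inclusion in the knockout gives a positive value, and of -0.225 to -0.14 in *Nova2-/-* cortex. They overlap and share junctions, so they are not 8 separate observations.

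**Figure D2:**
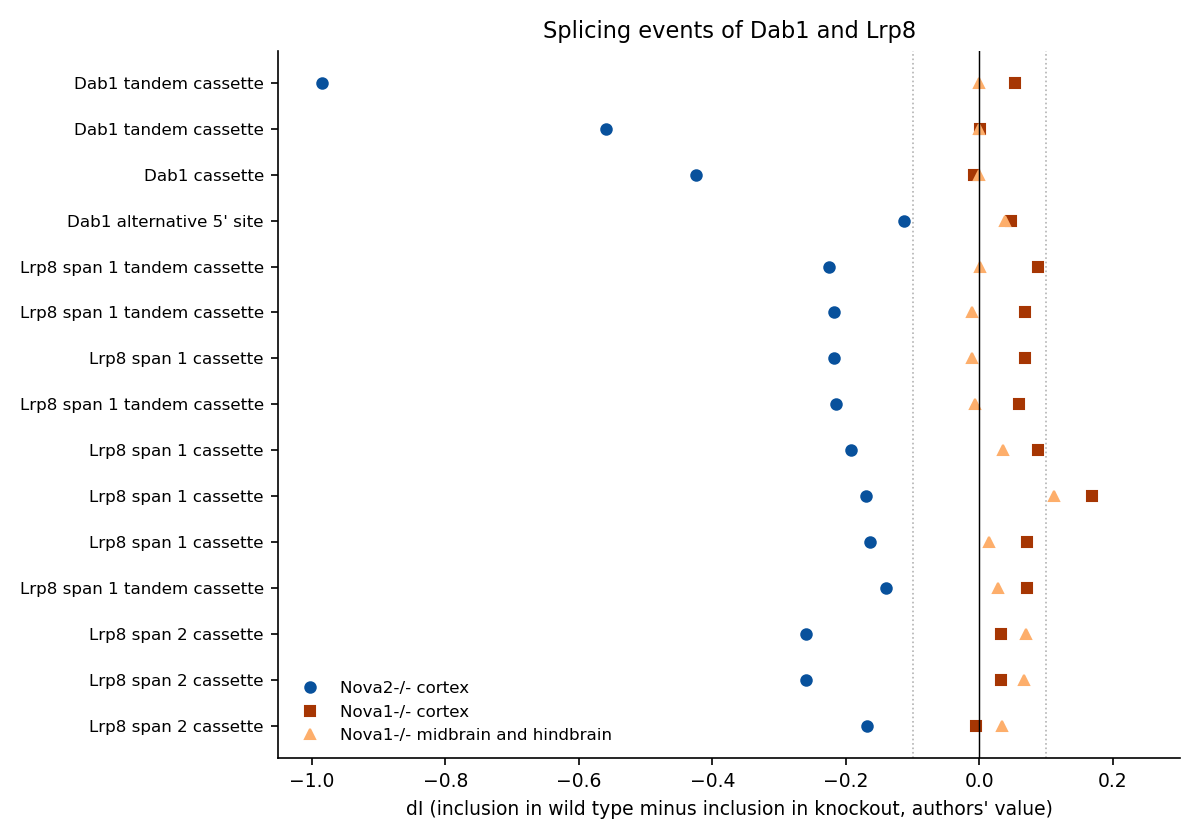
Δ*I* of each *Dab1* and *Lrp8* event (rows) in *Nova2-/-* cortex (circles), *Nova1-/-* cortex (squares) and *Nova1-/-* midbrain and hindbrain (triangles), as the authors deposited it, with dotted lines at an absolute Δ*I* of 0.1. All circles lie left of 0, down to -0.985, and 1 row, the 39 nt exon of *Lrp8*, has a square and a triangle beyond 0.1.

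Abundance was then compared in cortex. The deposited expected counts of a mouse summed to 16518172 to 31362018. *Nova1* fell in *Nova1-/-* cortex (log2 fold change -9.06) and *Nova2* fell in *Nova2-/-* cortex (log2 fold change -0.87), each against wild-type littermates. Wild-type replicate 3 of the *Nova2* litters stood apart from its group, and without it 1433 genes were called in the *Nova2-/-* comparison instead of 166. Wild-type replicate 2 of the *Nova2* litters had the lowest total and counts in 21791 genes, against 18397 to 19396 in the other mice. Where leaving one of them out changed a call or a direction, both values are given.

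Levels can be set side by side between genes only per length. In wild-type cortex of the *Nova2* litters *Fyn* had the highest level, 59.7 ± 6.33 CPM per kb of annotated exon (SD, n = 3), where CPM is the count scaled to a common library size after TMM normalization. *Reln* followed with 39.4 ± 7.09 CPM per kb, and neither gene overlapped its neighbours in the order. *Crk* (26.8 ± 2.62), *Dab1* (25.9 ± 1.65), *Rapgef1* (22.9 ± 5.51), *Src* (22.2 ± 0.464) and *Vldlr* (20.3 ± 0.442) formed a middle range of CPM per kb. Each of these overlapped the next except *Src* and *Vldlr*, which did not overlap each other. *Lrp8*, at 13.5 ± 2.68 CPM per kb, and *Crkl*, at 12.3 ± 1.70, were lowest and overlapped each other. The lengths join the exons of all annotated transcripts, 19845 nt for *Reln* and 4363 nt for *Fyn*, so an exon that cortex does not use lowers the level.

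Of the 9 genes, 0 were called in *Nova2-/-* cortex against wild-type littermates at an FDR below 0.05 by edgeR's quasi-likelihood test, where 1.06% of 15691 genes were. DESeq2 also called 0 of them, and 0 had an unadjusted p below 0.05, against 19.2% of all genes. Their median log2 fold change was 0.0017 and its median size 0.0704, against 0.159 over all genes tested. The genes tested include ones of far lower counts and were not matched in level, so the sizes were not compared further. *Fyn* was the only one whose groups did not overlap, against 25.9% of all genes.

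*Reln*, the ligand, had 658, 749.9 and 935 CPM in wild-type *Nova2* littermates and 939.6, 845 and 1200.2 CPM in the *Nova2-/-* mice. Wild-type replicate 3 was as high as the middle *Nova2-/-* mouse, so that the groups overlapped. The log2 fold change was 0.35 (standard error 0.16, 95% confidence interval -0.02 to 0.72, FDR-adjusted p = 0.282 from the edgeR quasi-likelihood test, Benjamini-Hochberg adjusted). It was 0.50 without wild-type replicate 3 (FDR-adjusted p = 0.0579 by the same edgeR test) and 0.19 without *Nova2-/-* replicate 3. In bulk tissue, fewer cells of a type and less RNA per cell cannot be told apart.

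Markers of Cajal-Retzius cells were set beside *Reln*, which is itself on the list. Of the 9 listed, 8 are in the table, *Ndnf* not among them, and all 8, *Reln* included, had a positive log2 fold change in *Nova2-/-* cortex, with a median of 0.34 and 0 called by edgeR. Without *Reln* their summed level was 96.7, 78.6 and 124 CPM in the wild-type mice and 118, 107 and 129 CPM in the *Nova2-/-* mice, ranges that overlapped. The defining marker *Trp73* had a log2 fold change of 0.39 and *Lhx5* of 0.68, neither called, and no listed marker was at 0 in any mouse. Of the 8, 5 had a positive log2 fold change in *Nova1-/-* cortex, with a median of 0.14. There the summed level without *Reln* was 118, 118.5 and 101 CPM in the wild-type mice and 127, 107 and 113 CPM in the knockouts, ranges that overlapped.

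The 14 markers of the meninges, the membranes that Cajal-Retzius cells adjoin, differed more. Their summed level was 208, 270.1 and 533 CPM in wild-type *Nova2* littermates, 913, 841 and 1022 CPM in the *Nova2-/-* mice, 867, 751 and 953 CPM in the wild-type mice of the *Nova1* litters and 712, 775 and 645 CPM in the *Nova1-/-* mice. All 14 had a positive log2 fold change in *Nova2-/-* cortex, with a median of 1.33, and 4 were called. The 9 interneuron markers summed to 481 to 550 CPM over all mice, with 1 called lower in *Nova2-/-* cortex. Of 5 endothelial markers 1 was called higher, and 0 were called among those of excitatory neurons, radial glia, microglia, oligodendrocyte lineage and erythroid cells. The part of these cell types in the levels of *Reln* was not tested.

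**Figure D3:**
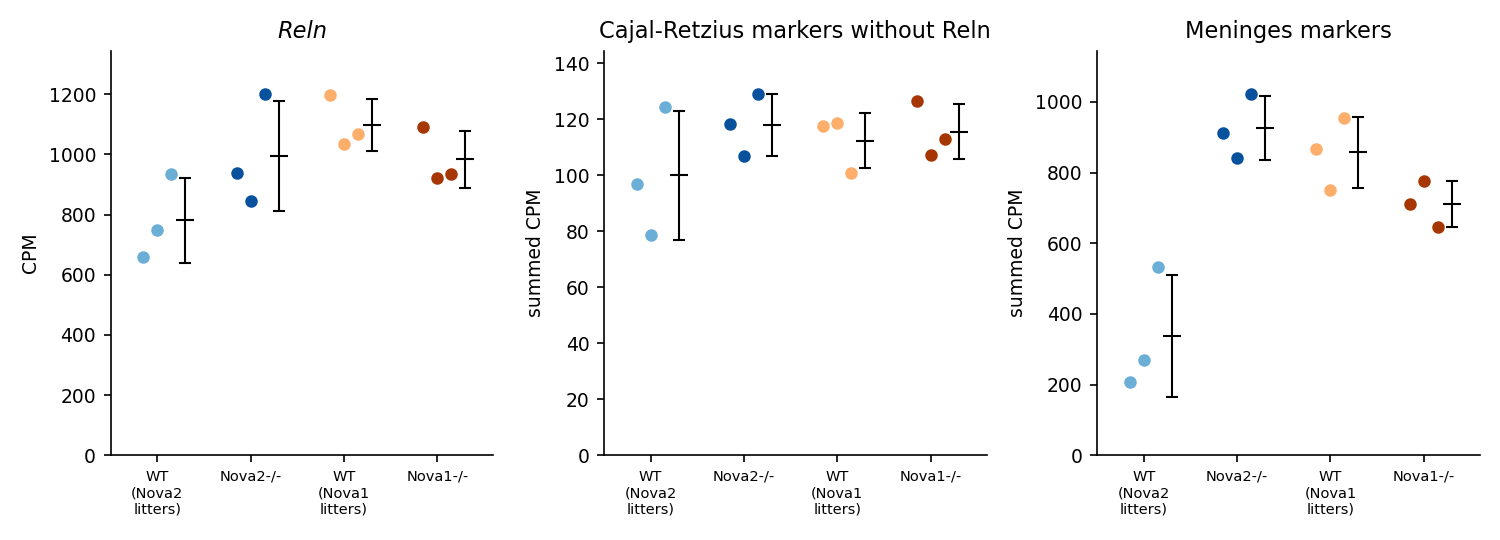
*Reln* (CPM), the 7 other Cajal-Retzius markers (summed CPM) and the 14 meninges markers (summed CPM) in each of 12 mice (points), with the mean and SD of each group of 3 beside them. The wild-type mice of the *Nova2* litters have the lowest group mean in all panels, and their replicate 3 the highest of the group.

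In *Nova1-/-* cortex *Reln* had 1092, 922 and 935 CPM, against 1197, 1033 and 1066 CPM in the wild-type littermates. The groups overlapped, and the log2 fold change was -0.16 (standard error 0.07, FDR-adjusted p = 0.672 from the edgeR quasi-likelihood test, Benjamini-Hochberg adjusted). The change of *Reln* in *Nova2-/-* cortex minus that in *Nova1-/-* cortex was 0.50 on the log2 scale (standard error 0.19, FDR-adjusted p = 0.18 by the same edgeR test), and without wild-type replicate 3 of the *Nova2* litters it was 0.66 (FDR-adjusted p = 0.0326 by edgeR), the only one of the fits run in which it was called, and one in which 6.15% of all genes were. In this difference of changes 0 of the 9 genes were called with all mice, against 1.83% of 16210 genes, and DESeq2 also called 0. *Reln* and *Fyn* had an unadjusted p below 0.05 there, from edgeR, as did 18.2% of all genes.

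Neither receptor was called. *Lrp8* had 123, 128.5 and 174 CPM in wild-type *Nova2* littermates and 140.4, 147 and 158 CPM in the *Nova2-/-* mice, a log2 fold change of 0.07 (standard error 0.13, 95% confidence interval -0.22 to 0.36). Wild-type replicate 3 was the highest of all 6, and the groups overlapped. *Vldlr* had 209, 201 and 203 CPM in the wild-type mice and 211, 216 and 185 CPM in the *Nova2-/-* mice, a log2 fold change of 0.0004 (standard error 0.07, 95% confidence interval -0.16 to 0.16).

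*Dab1* had 198.4, 198.1 and 221 CPM in wild-type *Nova2* littermates and 215, 217 and 201 CPM in the *Nova2-/-* mice. The knockout range lay inside the wild-type range, and the log2 fold change was 0.04 (standard error 0.07, 95% confidence interval -0.12 to 0.19, FDR-adjusted p = 0.799 from the edgeR quasi-likelihood test, Benjamini-Hochberg adjusted). *Dab1* thus combined the lowest Δ*I* of the table with an interval of abundance change that ended at 0.19 on the log2 scale. In the *Nova1* litters *Dab1* had 144.9, 145 and 149 CPM in wild-type and 159, 156 and 152 CPM in *Nova1-/-* mice, every knockout above every wild-type mouse. The log2 fold change was 0.09 (standard error 0.05, FDR-adjusted p = 0.735 by the same edgeR test).

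The kinase *Fyn*, a Src-family kinase, had 255, 236 and 290.1 CPM in wild-type *Nova2* littermates and 233.0, 225 and 233 CPM in the *Nova2-/-* mice. Every knockout value was below every wild-type value, by little for wild-type replicate 2. The log2 fold change was -0.17 (standard error 0.08, FDR-adjusted p = 0.284 from the edgeR quasi-likelihood test, Benjamini-Hochberg adjusted) and -0.09 without wild-type replicate 3. *Src* had 95.4 to 99.4 CPM in the wild-type mice and 95.2 to 101 CPM in the *Nova2-/-* mice, a log2 fold change of 0.0017 (standard error 0.06).

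Downstream of *Dab1*, the adaptor *Crk* had a log2 fold change of -0.08 (standard error 0.08) in *Nova2-/-* cortex and its relative *Crkl* one of 0.02 (standard error 0.12). *Rapgef1*, the exchange factor for RAP1, had 146.0, 145 and 216 CPM in the wild-type mice and 146, 146.1 and 159 CPM in the *Nova2-/-* mice. Wild-type replicate 3 was alone in its height, and the log2 fold change of -0.17 (standard error 0.15) turned to 0.05 without it.

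In *Nova1-/-* cortex 0 of the 9 genes were called by edgeR's quasi-likelihood test, against 0.0126% of 15901 genes, and DESeq2 called 0 as well. Their log2 fold changes lay between -0.16 and 0.09. Of the 9, *Crk* alone had an unadjusted p below 0.05, against 7.44% of all genes. It had 125.3, 111 and 119 CPM in the wild-type mice of the *Nova1* litters and 104, 109.8 and 109.5 CPM in the *Nova1-/-* mice, a log2 fold change of -0.14 (standard error 0.06, FDR-adjusted p = 0.656 from the edgeR quasi-likelihood test, Benjamini-Hochberg adjusted). *Dab1* and *Crk* were the genes whose groups did not overlap here, against 13.4% of all genes.

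**Figure D4:**
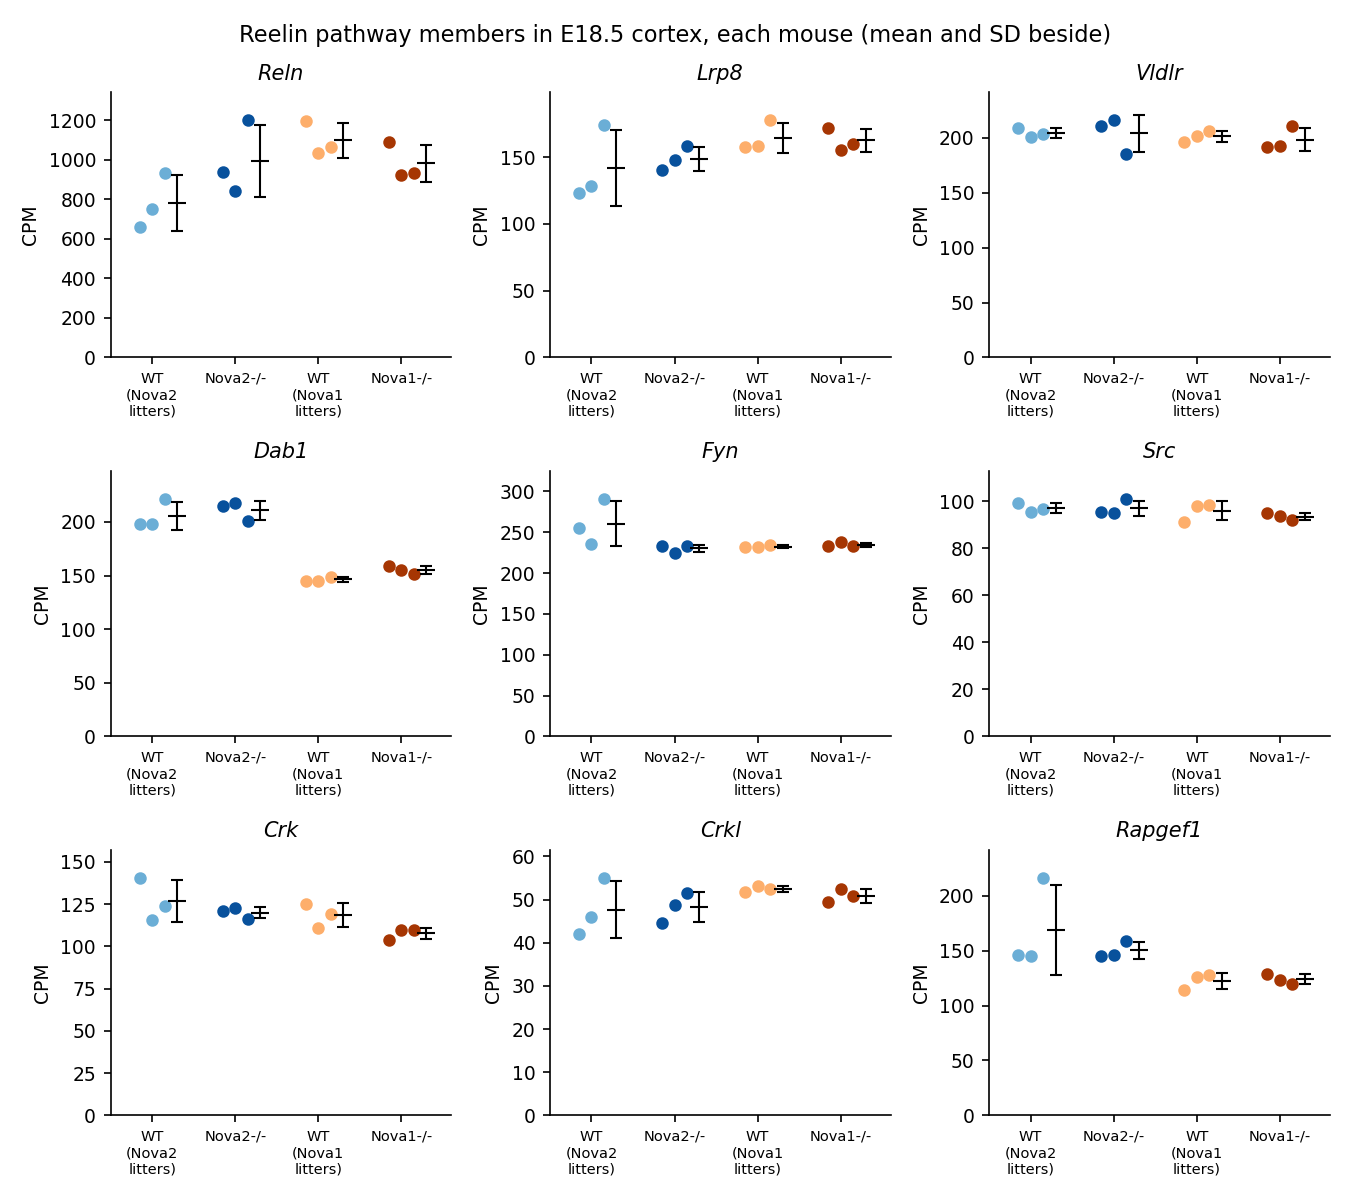
CPM of the 9 genes in each of 12 mice (points), with the mean and SD of each group of 3 beside them and axes from 0. *Dab1* lies at 198 to 221 CPM in all mice of the *Nova2* litters and at 144.9 to 159 CPM in all mice of the *Nova1* litters.

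The wild-type mice of both sets of litters were compared to see how far levels can be read across them. *Dab1* was lower in the *Nova1* litters, by a log2 fold change of -0.49 (standard error 0.07, FDR-adjusted p = 0.0182 from the edgeR quasi-likelihood test, Benjamini-Hochberg adjusted). It was the only one of the 9 genes called, against 3.03% of 15918 genes, and leaving out replicate 2 of the *Nova2* litters or any wild-type mouse of the *Nova1* litters left adjusted p-values of 0.0508 to 0.108 from edgeR. *Reln* was higher in the *Nova1* litters by 0.49 (standard error 0.12, FDR-adjusted p = 0.0676 by the same edgeR test) and *Rapgef1* had a log2 fold change of -0.47 (standard error 0.15, FDR-adjusted p = 0.114 by edgeR). Both were called by DESeq2, and *Reln* also by edgeR with no filter on low counts.

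*Reln*, *Dab1*, *Fyn* and *Rapgef1* did not overlap between the wild-type groups, against 26.9% of all genes. Without replicate 3 of the *Nova2* litters edgeR called 3561 genes instead of 483, or 22.3% of those tested, and 5 of the 9 were among them: *Reln* (0.64), *Lrp8* (0.39), *Crkl* (0.25), *Rapgef1* (-0.25) and *Dab1*. The share of counts that were not whole numbers was 7.48% to 11.7% in the *Nova2* litters and at least 18.6% in every mouse of the *Nova1* litters. Litter, processing and library cannot be told apart in this comparison, so the members' changes with genotype were read against littermates only.

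**Figure D5:**
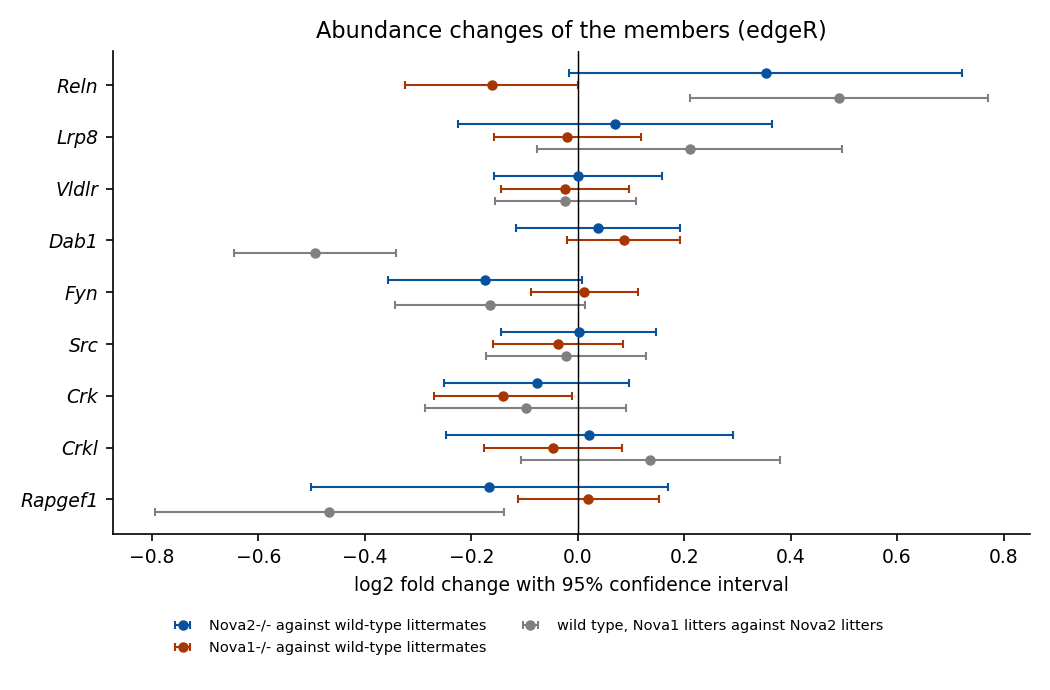
Log2 fold change of the 9 genes with its 95% confidence interval from edgeR, for *Nova2-/-* and *Nova1-/-* cortex against wild-type littermates and for the wild-type mice of the *Nova1* litters against those of the *Nova2* litters. The widest departures from 0 belong to the wild-type comparison, at -0.49 for *Dab1* and 0.49 for *Reln*.

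The 50 other genes listed for the pathway were all measured. In *Nova2-/-* cortex 1 was called higher and 0 lower by edgeR's quasi-likelihood test, and 8 had an unadjusted p below 0.05. Of all genes 1.06% were called and 19.2% had such a p, so the count of 8 was near the background. The one called was *Ctnnd1*, which codes for p120 catenin, a partner of cadherins in the adhesion branch of the pathway. It had 209, 186 and 208 CPM in wild-type *Nova2* littermates and 284, 275 and 277 CPM in the *Nova2-/-* mice, with no overlap. The log2 fold change of *Ctnnd1* was 0.47 (standard error 0.06, FDR-adjusted p = 0.0229 from the edgeR quasi-likelihood test, Benjamini-Hochberg adjusted), and it lost the call when any of 5 of the 6 mice was left out, wild-type replicate 3 being the exception. Without that mouse 5 of the 50 were called, where 9.03% of all genes were, a share near that of the pathway genes: *Ctnnd1*, *Cfl1*, *Plat*, *Mllt4* and *Adamts2*.

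The protease *Plat*, which cleaves reelin, had a log2 fold change of 0.43 (FDR-adjusted p = 0.0937 by the same edgeR test), and *Cfl1*, the actin-severing cofilin, one of -0.24 (FDR-adjusted p = 0.129 by edgeR). *Ndel1* and *Pafah1b1* (Lis1), which act on dynein, had log2 fold changes of -0.22 and -0.20 and were not called by edgeR. Over the 50 genes the median was -0.05 and its median size 0.118.

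In *Nova1-/-* cortex 0 of the 50 were called by edgeR or by DESeq2, and 2, *Socs7* and *Notch1*, had an unadjusted p below 0.05. Of all genes 0.0126% were called by edgeR and 7.44% had such a p. *Ctnnd1* had 187, 196 and 189.6 CPM in the wild-type mice of the *Nova1* litters and 187, 185 and 188 CPM in the *Nova1-/-* mice, a log2 fold change of -0.04 (standard error 0.05). Events were listed for 2 of the 50 genes. A cassette exon of *Rap1gap*, which turns RAP1 off, had a Δ*I* of -0.205 in *Nova2-/-* cortex and 0.0139 in *Nova1-/-* cortex. A cassette exon of *Mllt4* (afadin), which binds RAP1 at junctions, had a Δ*I* of 0.129 and -0.0504.

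The genes most like each member of the receptor complex across the 12 cortex mice were looked up among 14472 genes on log2 CPM. They are given as a description, since the mice fall into the groups above and may share litters. Differences between the *Nova2* and *Nova1* litters enter each of these correlations. *Nmb* was nearest to *Reln* (Pearson's r of 0.95, Spearman's rho of 0.94), then *Gbf1* and *Jag1*. *Tmem44* was nearest to *Dab1* (r of 0.99, rho of 0.94), then *Arhgef26* and *Pygo1*, with the *Nova2* litters on one side and the *Nova1* litters on the other for *Dab1* itself. *Tet3* was nearest to *Lrp8* (r of 0.98, rho of 0.92), then *Dctn1* and *Sorcs2*, and *Ociad2* was nearest to *Vldlr* (r of 0.89, rho of 0.88), then *Rapgef5* and *Ppp1r8*.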

How the data were processed

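Total RNA from E18.5 cortex was depleted of ribosomal RNA and sequenced as paired-end reads. Reads were aligned with OLego to mm10 by the authors, who deposited expected counts per gene symbol, not normalized, and Δ*I* per splicing event with coordinates converted to mm9. The counting program is not given in the sources used here. Columns of fold change and FDR in these tables hold the authors' own comparisons and were not used. The expected counts were rounded and tested with edgeR 4.0.16 in R 4.3.3: TMM scaling, filterByExpr, the quasi-likelihood test with Benjamini-Hochberg adjustment over all genes tested, and a call at an FDR below 0.05. Each fit used the 6 mice compared, and the difference of changes used all 12. The test was checked on simulated counts. Wild-type mice were assigned to litters from their labels and the methods. Nothing says that the mice of a group came from separate litters, so p-values measure the spread between these mice.

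Δ*I* was taken as deposited, with no test, and event starts were counted from 1. Its sign was read from a *Neo1* exon that the study describes as more included in the knockout and whose deposited Δ*I* is below 0. Exons came from GENCODE vM1, and lengths and sequences from that annotation and the mm9 genome. A region for YCAY was an alternative exon with 200 nt on either side, and the windows upstream of annotated internal exons were added after the counts had been seen. All 9 genes are reported in each comparison, and the 50 other pathway genes as counts with the named examples. For *Reln*, *Dab1*, *Lrp8* and *Vldlr*, the 3 genes with the highest r are named. The genes, lists and comparisons were chosen with earlier results of these data known. Alternatives were DESeq2 1.42.0, upper-quartile scaling, no filter on low counts, a minimum of 10 counts per sample, a fold change of at least 2, a replicate block, all 12 mice in one fit, each mouse left out, other limits for Δ*I* and another flank. Python 3.11.15 with scipy 1.17.1, pandas 2.3.3 and matplotlib 3.10.9 served for tables and figures.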

Additional observations from a re-analysis of the deposited data

Results flagged for a closer look

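The change of *Ctnnd1* differed between the knockouts: the log2 change in *Nova2-/-* cortex minus that in *Nova1-/-* cortex was 0.50 (standard error 0.08, adjusted p = 0.00544 from the edgeR quasi-likelihood test, Benjamini-Hochberg adjusted), with all 3 *Nova2-/-* mice above their wild-type littermates. It was looked at again because the test of this difference passed the threshold. Of the 9 Reelin genes 0 passed it and of the 50 other pathway genes 1, against 1.83% of 16210 genes, so the count was near the background.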

How the results depend on the processing

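No alternative called any of the 9 genes in either knockout. The other pathway genes called in *Nova2-/-* cortex numbered 3 instead of 1 with DESeq2 (*Cfl1*, *Ctnnd1*, *Plat*) and 4 with all 12 mice in one fit. They numbered 0 with a fold change of at least 2 required and 0 to 5 with 1 mouse left out, where 0.0439% to 9.03% of all genes were called. Members called between the wild-type groups numbered 2 instead of 1 with no filter, 3 with DESeq2 and 0 with the fold requirement. With 1 mouse left out they numbered 0 to 5, and in the difference of changes 0 to 1. The shares of all genes called with DESeq2, with no filter and in the fit of 12 are not given here. Those counts therefore describe the settings and not the genes. Member events reaching the limit of Δ*I* in *Nova1-/-* cortex numbered 9 instead of 1 at a limit of 0.05, 0 at 0.2 and 0 with 1 event per span. Among the 9 were the 8 overlapping events of the first *Lrp8* span. In midbrain and hindbrain member events reaching the limit numbered 3, 0 and 0. The shares of all events at 0.05 and 0.2 are not given here, so these counts describe the settings and not the genes. The cause of these moves was not tested. The YCAY density of *Dab1* was 5.81 per 100 nt with a flank of 100 nt.

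Changes near 0 crossed it. In *Nova2-/-* cortex *Vldlr* turned to -0.0014 with at least 10 counts, -0.0062 with DESeq2, -0.0024 with the replicate block and -0.0117 in the fit of 12, and *Src* to -0.0053 with DESeq2 and -0.0108 in the fit of 12. With 1 mouse left out, log2 changes that crossed 0 in *Nova2-/-* cortex spanned -0.0524 to 0.0616 for *Vldlr*, -0.0308 to 0.0156 for *Src*, -0.0666 to 0.138 for *Crkl*, -0.0292 to 0.245 for *Lrp8* and -0.266 to 0.0499 for *Rapgef1*. In *Nova1-/-* cortex they spanned -0.0589 to 0.0389 for *Lrp8*, -0.029 to 0.0502 for *Rapgef1* and -0.0672 to 0.0034 for *Vldlr*. In the difference of changes they spanned -0.0241 to 0.181 for *Crkl*, -0.0826 to 0.0022 for *Dab1*, -0.014 to 0.261 for *Lrp8*, -0.29 to 0.0267 for *Rapgef1* and -0.0193 to 0.0939 for *Vldlr*. Between the wild-type groups they spanned -0.0507 to 0.0177 for *Src* and -0.0425 to 0.0003 for *Vldlr*.

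With the replicate number as a block, 220 genes instead of 166 were called in *Nova2-/-* cortex, 0 of the 9 and 1 of the other pathway genes. Deviations of same-numbered mice correlated at 0.162, 0.0318 and 0.21, and each wild-type mouse correlated best with its own number. The numbers were not taken as pairs. The *Nova1* litters share no numbers, so no paired fit was made there. The intervals of the abundance changes of all 9 genes in *Nova2-/-* cortex reached both sides of 0, and their width differed between genes, from -0.14 to 0.15 for *Src* and from -0.02 to 0.72 for *Reln*. Δ*I* carries no depth.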
